A study of Homo sapiens with 12 samples.

Results

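The regions described here are stretches of the HepG2 genome where a FoxK1 peak was called in at least 2 of 3 untreated libraries and in none of 3 insulin libraries. They number 577 of the 68127 regions obtained by merging all peaks that share at least 1 bp, a share of 0.847%. They are called untreated-only regions below, after the rule that chose them. They were chosen by the presence of peaks in both treatments, so their absence from the insulin lists is not a finding, and no test was run on it.

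The data are peak lists from chromatin immunoprecipitation with a FoxK1 antibody in HepG2, an established line from a human liver tumour. All cells spent 16 h in medium without serum and then received insulin (100 nM, 20 min) or nothing, with 3 immunoprecipitated libraries per condition. The 6 input libraries were not analysed here. Nothing in the labels says that the libraries came from separate cultures, and peak lists cannot be checked against liver marker genes.

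FoxK1 is a forkhead transcription factor that is expressed in many tissues. Forkhead proteins share a winged-helix domain that binds DNA, and FoxK1 also carries a domain that recognises phosphorylated proteins. In liver cells insulin is known to send FoxO1, another forkhead factor, out of the nucleus, while FoxK1 moves the opposite way, into it. FoxK1 is also known as a repressor of autophagy genes and as a factor that favours glycolysis. The comparison asks whether some sites lose FoxK1 after insulin.

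The lists differed in length and in the fragments at their summits before any region was compared. They held between 26082 and 48208 peaks, and both replicate 3 lists were the shortest of their condition. The depth in reads is unknown. A whole number of fragments at each summit followed from the fold and −log10 p that the authors deposited, and the median summit had 43, 35 and 22 fragments in untreated replicates 1, 2 and 3 and 27, 37 and 21 in insulin replicates 1, 2 and 3. A missing peak means only that a library fell below its caller's limit. Peaks near that limit, with a −log10 p under 3.5, had a median of 9, 13 and 10 fragments in the 3 insulin lists. In untreated replicates 1, 2 and 3 they had 16, 14 and 11. The background was at the lowest value of its list for 33.2% of the peaks in untreated replicate 3 and 29.6% in insulin replicate 3, against at most 1.29% in the other lists.

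Untreated-only regions were fewer than their mirror image. The opposite rule, at least 2 of 3 insulin libraries and no untreated one, was met by 2848 regions (4.18% of all). Of the 29726 regions called in at least 2 untreated libraries, 1.94% had no insulin peak, and of the 36996 called in at least 2 insulin libraries, 7.7% had no untreated peak. With every list cut to its 26082 strongest peaks by −log10 q, the length of the shortest list, the 2 directions were nearly level. The untreated-only count was then 807 (1.87% of 43254 regions) and the insulin-only count 860 (1.99%). They made up 3.41% of the regions in at least 2 untreated libraries and 3.55% of those in at least 2 insulin libraries. With the 20000 strongest peaks per list the counts were 713 (2.32% of the merged regions) and 671 (2.19%). With 15000 they were 559 (2.45%) and 525 (2.30%), and with 10000 they were 395 (2.55%) and 381 (2.46%). With 5000 they were 202 (2.55%) and 196 (2.48%). The direction of the excess thus turned between 26082 and 20000 peaks per list.

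The same count was made for each of the 20 ways to put 3 of the 6 libraries on the called side. In the deposited lists the 18 sides that mix treatments gave between 349 and 9938 regions, with a median of 1561.5, and 17 of them gave more than the 577 of the untreated side. The highest, 9938, came from untreated replicate 1 with insulin replicates 1 and 2, and the lowest, 349, from untreated replicates 2 and 3 with insulin replicate 3. In lists of equal length the mixed sides gave between 698 and 1987, with a median of 1045.5, and 14 of them exceeded the 807 of the untreated side. The 10 mixed sides that keep the 2 replicate 3 libraries apart, as the real one does, gave between 698 and 1106 at equal length. The untreated side, with 807, lay inside that range. In the deposited lists the same 10 sides gave between 593 and 2700, and the 577 of the untreated side lay below all of them. The deposited lists differ in length, and no test is attached to either place in the order.

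**Figure D1:**
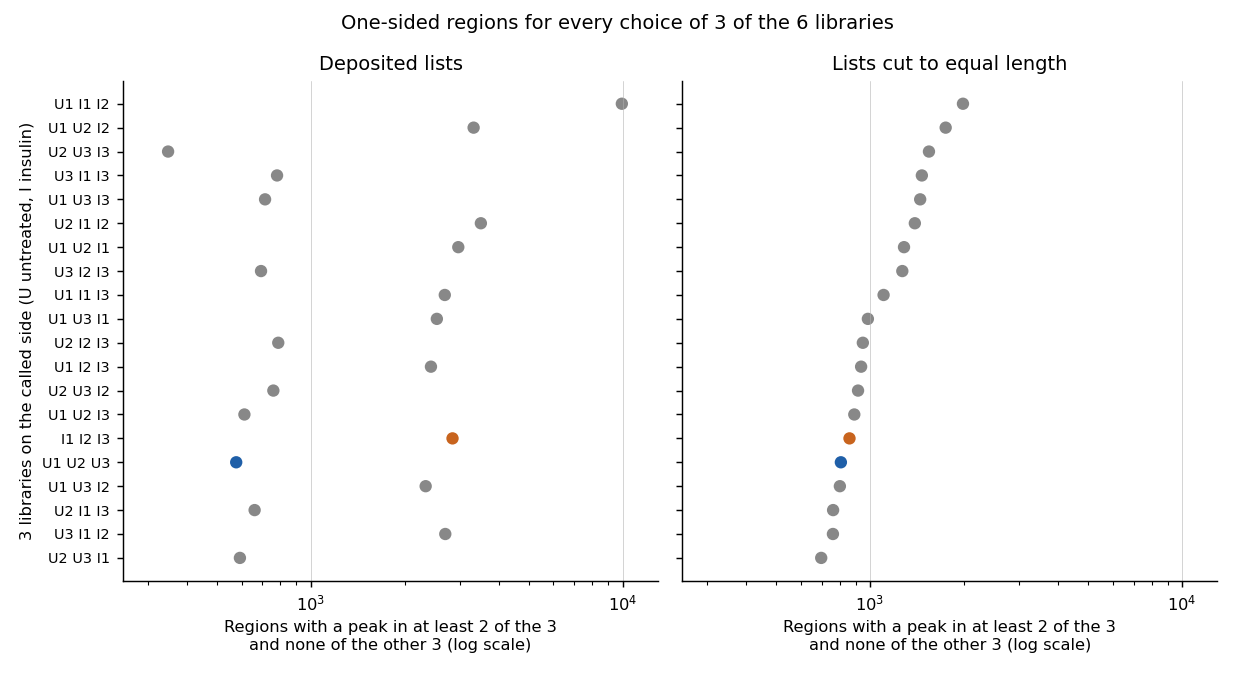
Regions with a peak in at least 2 of 3 libraries and none of the other 3 (x axis, log scale) for every choice of 3 libraries (y axis; U untreated, I insulin, numbers are replicates), in the deposited lists (left) and in lists of 26082 peaks (right). The untreated side (blue) had 577 and 807 regions, the insulin side (orange) 2848 and 860, and grey points are mixed sides.

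The 2 untreated-only sets overlapped little. Of the 577 regions from the deposited lists, 82 (14.2%) were found again among the 807 from lists of equal length, and these are 10.2% of the latter. The other members lost untreated peaks to the shortening: 180 kept none of theirs and 315 kept 1. Of the 807 regions from equal lists, 725 (89.8%) overlapped a peak that an insulin library does have in its deposited list, below the 26082nd place.

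Most untreated-only regions came from the 2 longest untreated lists. There were 343 (59.4%) in replicates 1 and 2 alone, 169 (29.3%) in replicates 1 and 3 alone, 41 (7.11%) in replicates 2 and 3 alone, and 24 (4.16%) in all 3. The 24 are 0.0352% of all regions. Mixed pairs set the scale for these numbers. Exactly untreated replicate 1 and insulin replicate 1 shared 1979 regions, and exactly untreated replicate 1 and insulin replicate 2 shared 1820. Untreated replicate 2 shared 319 with insulin replicate 1 alone and 488 with insulin replicate 2 alone. In lists of equal length the pair of untreated replicates 1 and 2 had 342 regions to itself, against 509 and 426 for untreated replicate 1 with insulin replicates 1 and 2, and 226 and 440 for untreated replicate 2 with the same insulin libraries. The untreated pair lay inside this range.

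A measure that the choice did not use was obtained by holding out libraries. In each of 9 rounds, 1 untreated and 1 insulin list were set aside, and regions were merged from the other 4 lists. Those with a peak in both remaining untreated lists and neither insulin list were then looked up in the 2 lists set aside. The regions chosen this way were found more often in the insulin list set aside than in the untreated one in 7 of 9 rounds. The mean share found was 24.2% in the untreated list and 45.5% in the insulin list, a mean difference of -21.2 ± 23.8 percentage points (SD over 9 rounds, which share libraries). Of the 68127 regions merged from all 6 lists, untreated replicates 1, 2 and 3 had a peak in 43342, 30560 and 25055. Insulin replicates 1, 2 and 3 had one in 45718, 44419 and 26292, and the shares found were not adjusted for this. With untreated replicate 3 and insulin replicate 2 set aside, 1150 regions were chosen, of which 9.74% were in the untreated and 68.1% in the insulin list. With both replicate 3 libraries set aside, 392 were chosen, of which 30 (7.65%) were in untreated replicate 3 and 25 (6.38%) in insulin replicate 3. With untreated replicate 1 and insulin replicate 3 set aside the order was the other way, 36.7% against 19.0% of 79 regions. Those are the longest untreated and the shortest insulin list.

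With the lists cut to equal length the mean over the 9 rounds kept its sign, but the rounds differed by which libraries were set aside. The mean share was 34.1% in the untreated list set aside and 46.6% in the insulin list, and the insulin share was again higher in 7 of 9 rounds. The mean difference was -12.5 ± 13.8 percentage points, smaller than its SD. In the 4 rounds that set aside 1 replicate 3 list and not the other, the differences ran from -40.6 to -16.3 points. In the other 5 rounds they ran from -10.4 to 5.06 with a mean of -2.98 ± 6.13. In the 3 same-numbered rounds they were 5.06, -2.50 and 0.322 points for replicates 1, 2 and 3, a mean of 0.960 ± 3.82. The insulin excess at equal length thus lay mainly in rounds with 1 replicate 3 list set aside. The mirror choice, made on insulin lists, gave 39.5% in the untreated and 47.8% in the insulin list set aside, and 51.9% and 43.8% with equal lengths. Regions chosen as insulin-only in 4 lists of equal length were thus found more often in the untreated list set aside in 7 of 9 rounds. The same split applied to the mirror choice: the difference ran from 3.06 to 39.1 points with 1 replicate 3 list set aside and had a mean of -0.552 ± 3.98 in the other 5 rounds. With both replicate 3 libraries set aside, regions chosen as untreated-only in the other 4 lists were looked up. The shares found in the 2 lists set aside differed by 1.28 points in the deposited lists and by 0.322 points at equal length. Regions chosen in 4 lists are not the 577, which have no insulin peak by rule. The 577 are named here by the rule they were chosen by.

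**Figure D2:**
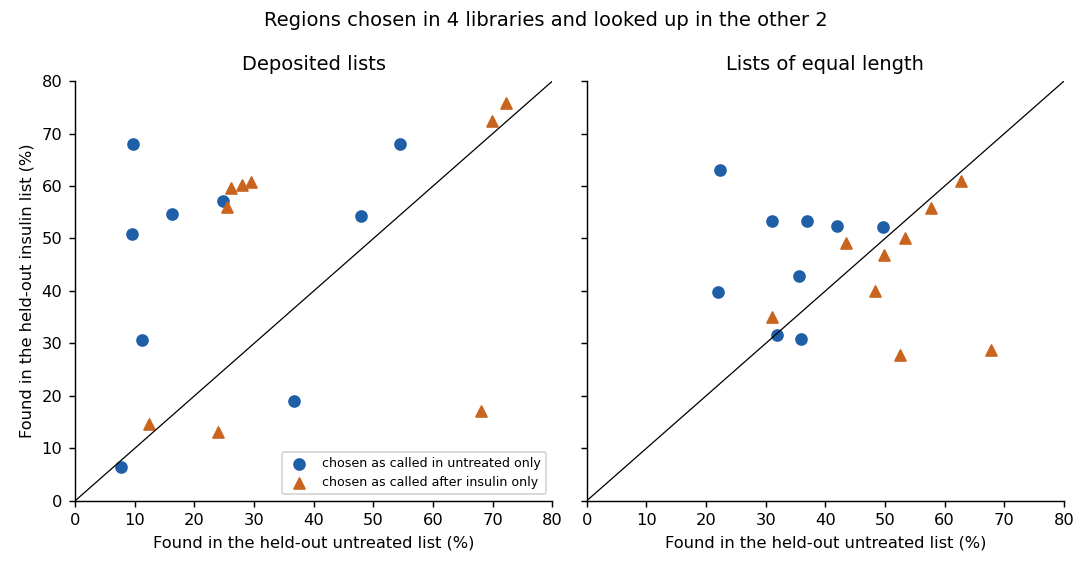
Share of regions found in the untreated list set aside (x axis, %) and in the insulin list set aside (y axis, %), 1 point per round and choice, for the deposited lists (left) and lists of equal length (right). Blue points above the line are rounds in which regions chosen as untreated-only were found more often after insulin, 7 of 9 in both panels, with differences of -2.50 to 5.06 points in the same-numbered rounds at equal length.

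Untreated-only regions were weak in their own lists. Strength is given as the percentile of a peak's deposited −log10 q within its list, where 100 is the strongest. Their median percentile was 21.1, 14.9 and 18.5 in untreated replicates 1, 2 and 3. Only 33 of 536 peaks in replicate 1, 3 of 408 in replicate 2 and 15 of 234 in replicate 3 stood in the upper part of the list, at or above the 50th percentile. The authors' fold over background at these peaks had a median of 3.87, 3.24 and 3.19 and ran from 1.72 to 9.77. Their summits held a median of 23, 18 and 15 fragments over a background of 5.16, 4.79 and 3.42. The −log10 q of these peaks had a median of 6.11, 3.60 and 2.56 in untreated replicates 1, 2 and 3. It reached 5 in 350 of 536, 103 of 408 and 31 of 234 of them. These values describe the members and come from the same lists as the choice.

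Strength rose with the number of insulin libraries that also had the region. In untreated replicate 1 the median percentile was 21.1 with no insulin library, 30.8 with 1, 49.9 with 2 and 75.9 with 3. The order was the same in untreated replicate 2 (14.9, 21.7, 37.1 and 67.6) and in untreated replicate 3 (18.5, 26.6, 34.8 and 66.5). Peaks found in a single library stood lower still, at 13.5, 7.81 and 10.9. Of the regions in at least 2 untreated libraries, 577 had no insulin library, 1674 (5.63%) had 1, 7791 (26.2%) had 2 and 19684 (66.2%) had 3. The untreated-only regions formed the thin and weak end of this series. The mirror series had the same order. Insulin-only regions had median percentiles of 24.3, 20.4 and 19.6 in insulin replicates 1, 2 and 3. In insulin replicate 1 the median was 37.5 with 1 untreated library, 53.3 with 2 and 79.6 with 3. It also rose at each step in insulin replicates 2 and 3. Weakness of this kind was thus not particular to the untreated-only regions.

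**Figure D3:**
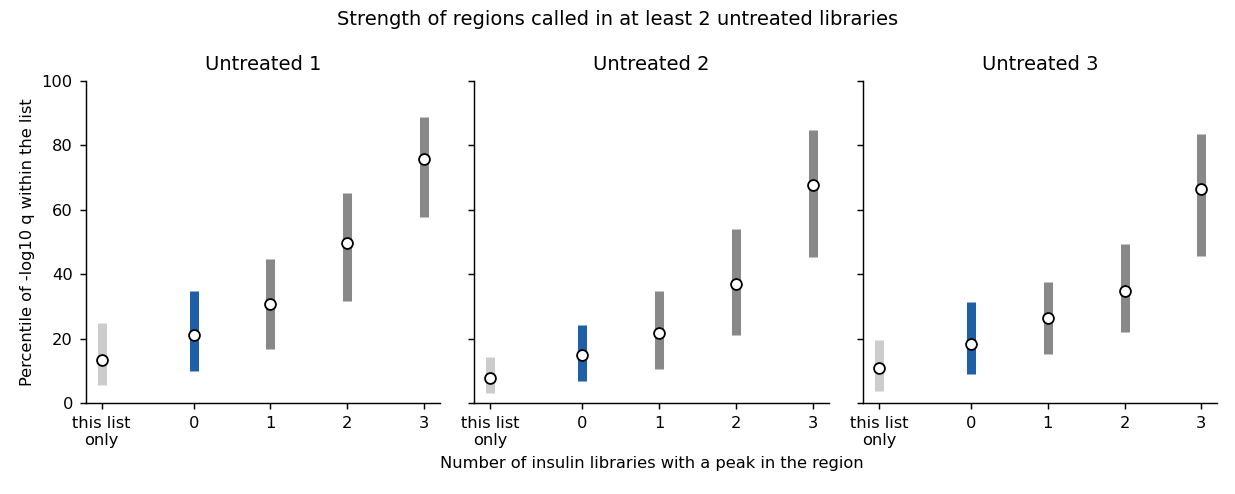
Percentile of −log10 q within each untreated list (y axis) for regions called in at least 2 untreated libraries, by the number of insulin libraries with a peak (x axis). Bars run from the lower to the upper quartile and circles are medians; untreated-only regions (blue) had medians of 21.1, 14.9 and 18.5.

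Just outside the rule stand the 1674 regions with a peak in exactly 1 insulin library. That library was insulin replicate 2 for 969, insulin replicate 1 for 593 and insulin replicate 3 for 112. The insulin peak had a median percentile of 31.1, 31.5 and 26.4 in these lists, so it was a weak call there too. Just inside the rule, 50 untreated-only regions had an insulin peak within 500 bp and 6 had one within 100 bp. The closest was chromosome 18, 29354328 to 29354919, with an insulin peak 15 bp away. Only 5 of the 1674 regions were kept out by an insulin peak sharing fewer than 100 bp. Without regions that have a peak of the other treatment within 500 bp, 527 untreated-only and 2596 insulin-only regions were left.

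Untreated-only regions were narrow. Their width had a median of 495 bp (quartiles 407 and 613) and ran from 301 to 1572 bp, and 8 were wider than 1 kb. Regions called in at least 2 untreated libraries had a median width of 566 bp with 1 insulin library, 666 bp with 2 and 1021 bp with 3. Regions called in exactly 2 libraries of any kind had a median of 456 bp and insulin-only regions 453 bp. A merged region widens with each peak it takes in, so width and number of libraries are linked by construction. The single peaks inside untreated-only regions were 370, 361.5 and 359.5 bp wide at the median in untreated replicates 1, 2 and 3.

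Summits of different libraries lay farther apart in untreated-only regions than in regions found in all 6 libraries. Between untreated replicates 1 and 2 the median distance was 54 bp over 367 regions, and 46.3% of the pairs lay within 50 bp. In the 15887 regions found in all 6 libraries it was 29 bp, with 69.0% within 50 bp. Between untreated replicates 1 and 3 the medians were 85 and 37 bp, and between untreated replicates 2 and 3 they were 86 and 42 bp. Regions that only untreated replicate 1 and insulin replicate 1 shared had a median distance of 36 bp over 1979 regions, and 61.7% lay within 50 bp. Regions that only untreated replicates 1 and 2 shared had 56 bp over 343. Over the 9 pairs of 1 untreated and 1 insulin library, these medians ran from 36 bp to 133 bp, the latter for the replicate 3 pair, and the untreated pair lay inside that range. Untreated replicate 2 had 59 bp with insulin replicate 1 and 61.5 bp with insulin replicate 2.

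Most untreated-only regions lay away from the sites found in all 6 libraries. The median distance between edges was 28561 bp (quartiles 8452 and 81271). Of the 577, 161 lay within 10 kb of such a site (27.9%, Wilson 95% interval 24.4% to 31.7%), 42 within 1 kb and 124 beyond 100 kb. Insulin-only regions were within 10 kb in 31.6% of cases (29.9% to 33.3%), and regions of a single untreated library in 24.0% (23.2% to 24.9%). For regions called in 2 untreated and all 3 insulin libraries the share was 34.4% (32.9% to 35.9%). Neighbouring regions are not independent, so these intervals cover counting error only and were not used as a test. The nearest insulin peak of any strength lay at a median of 6021 bp, and for insulin-only regions the nearest untreated peak lay at 6006.5 bp.

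**Figure D4:**
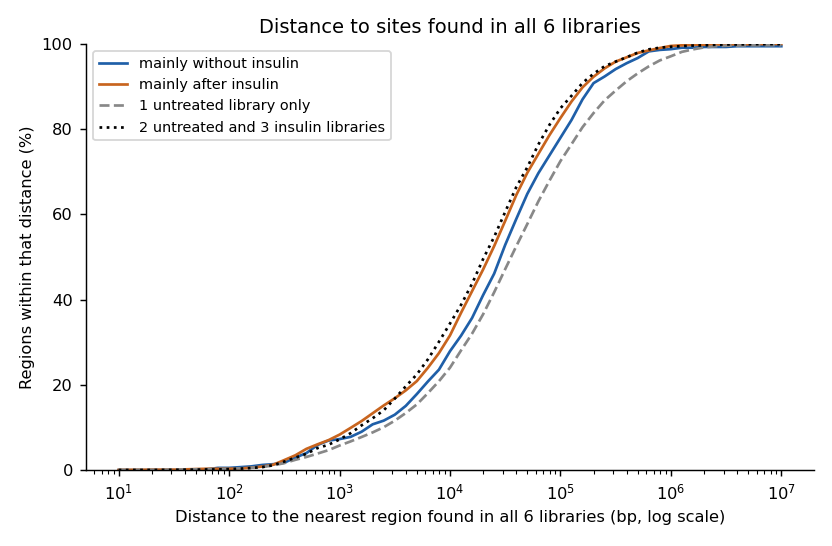
Share of regions (y axis, %) within a given distance of the nearest region found in all 6 libraries (x axis, bp, log scale). Untreated-only regions (blue, 27.9% within 10 kb) run between regions of 1 untreated library only (dashed, 24.0%) and insulin-only regions (orange, 31.6%) at that distance; the dotted line is regions of 2 untreated and 3 insulin libraries (34.4%).

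The regions were scattered over the genome. Chromosome 1 had the most, 53, followed by chromosome 2 with 49 and chromosome 6 with 48. Of 483 windows of 1 Mb with any, 405 had a single region and 15 had 3 or more. The fullest window was chromosome 10, 60000001 to 61000000, with 4 regions, 12 sites found in all 6 libraries and 25 regions called in at least 2 untreated libraries. No 2 neighbours lay within 10 kb of each other, and the median gap between neighbours was 2756914.5 bp. Outside chromosomes 1 to 22 and X there were 4 regions, 3 of them on the unlocalized contig 9_gl000199_random and 1 on Y.

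Relative to the regions called in at least 2 untreated libraries, they were fewest on chromosomes 22, 19 and 17. They made up 0.432% of that set on chromosome 22 (3 of 694), 0.615% on 19 (9 of 1464) and 0.906% on 17 (16 of 1766). The share was 3.11% on chromosome 18 (17 of 547) and 3.01% on chromosome 10 (39 of 1297). Insulin-only regions did not have this order among regions called in at least 2 insulin libraries. Their share was 8.79% on chromosome 22, 7.50% on 19, 8.22% on 17, 7.51% on 18 and 8.17% on 10. Chromosomes 17 and 19 are known as gene-rich and chromosome 18 as gene-poor, but a part of gene density was not tested. With lists of equal length chromosome 18 again had the highest share of untreated-only regions, 5.43% (24 of 442). Chromosome 10 then had 3.67% (37 of 1008), near the 3.41% over all chromosomes. Chromosomes 22, 19 and 17 then had 2.90%, 2.62% and 3.04%, and the lowest share, 1.60% (3 of 187), was on chromosome 21.

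**Figure D5:**
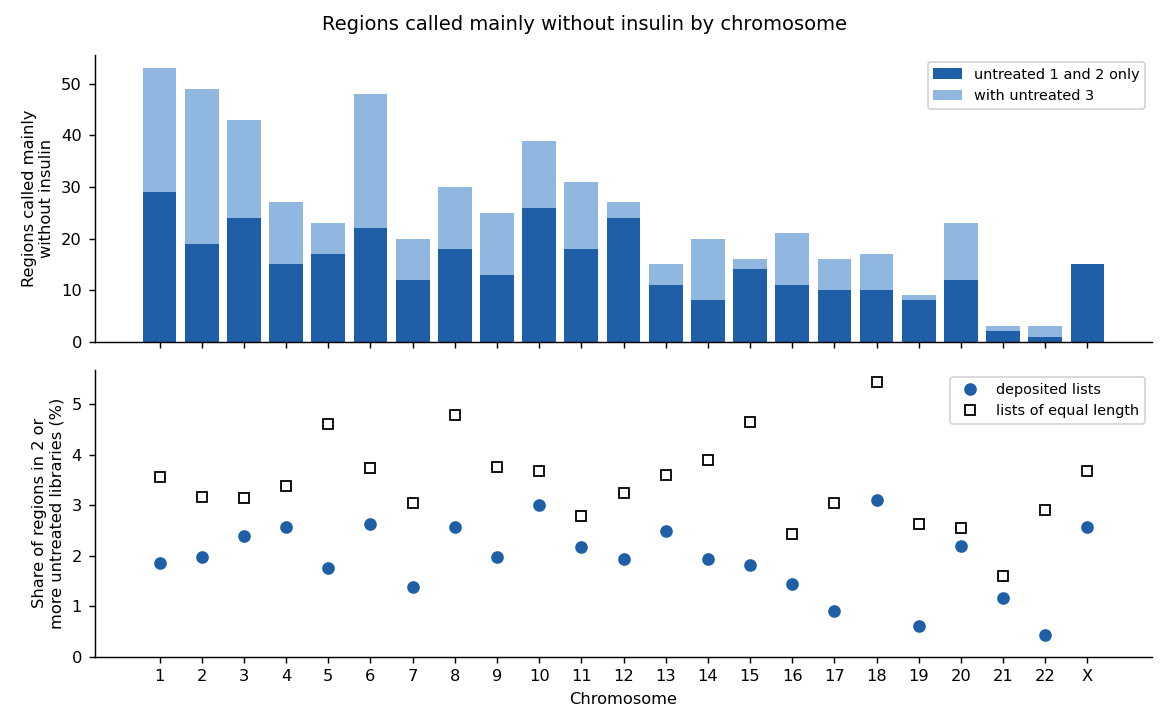
Untreated-only regions per chromosome (top, counts; dark, untreated replicates 1 and 2 only; light, with untreated replicate 3) and their share of the regions called in at least 2 untreated libraries (bottom, %; filled, deposited lists; open squares, lists of equal length). Chromosome 18 has the highest share under both lengths, 3.11% and 5.43%.

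Chromosomes 2, 6, 14, 16, 17 and 20 were picked because calls of the replicate 3 libraries alone crowd there in these same lists, so the following shares restate that choice and are no test. These chromosomes held 95 of the 234 regions with a peak in untreated replicate 3 (40.6%). They held 82 of the 343 regions of replicates 1 and 2 alone (23.9%). Of the 41 regions of replicates 2 and 3 alone, 23 (56.1%) lay on these chromosomes. For all 577 the share was 30.7%, near the 34.2% of all regions. At the untreated replicate 3 peaks of untreated-only regions the background was at the lowest value of its list in 47.4% of cases, against 33.2% over the whole list. The share was 47.7% for regions in at least 2 untreated libraries and 1 insulin library. For regions of untreated replicate 3 alone it was 53.4%. The part of this lowest background in the calls was not tested.

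Among the 24 regions called in all 3 untreated libraries, the one with the highest mean percentile, 40.2, lay on chromosome 9 at 123814073 to 123814749. Its summits held 30, 21 and 31 fragments in untreated replicates 1, 2 and 3, and the nearest insulin peak was 937 bp away. Untreated replicate 3, the shortest list, had the highest count there.

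On chromosome 1, 185317319 to 185317909, the summits held 34, 21 and 15 fragments, and an insulin peak lay 1197 bp away. Chromosome 17, 67014241 to 67014712, had 23, 21 and 21 fragments and no insulin peak nearer than 13172 bp. Chromosome 2, 48678016 to 48678563, had 28, 23 and 21 fragments and lay 9649 bp from a site found in all 6 libraries. These 4 had mean percentiles of at most 40.2, so even the strongest members called in all 3 libraries ranked below the midpoint of the lists on average.

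Chromosome 13, 46101944 to 46102407, stood most alone of the first 10, with no insulin peak within 62477 bp and 23, 14 and 16 fragments. At chromosome 2, 39659850 to 39660362, the 3 summits fell on the same base, with 37, 21 and 18 fragments. Chromosome 7, 77388471 to 77389317, had a summit span of 25 bp and chromosome 11, 34986464 to 34987069, one of 53 bp. Over the first 10 the span between summits ran from 0 to 261 bp, widest at chromosome 12, 45586109 to 45586617. Chromosome 5, 59973665 to 59974330, had a span of 121 bp, with 30, 21 and 15 fragments. A region called in 3 libraries was thus not always called at 1 position.

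The strongest of the 343 regions of untreated replicates 1 and 2 was chromosome 16, 46389796 to 46390194, with percentiles of 66.7 and 72.8. This rank went with many fragments and a low fold. Its summits held 243 and 388 fragments over backgrounds of 112 and 226, with folds of only 2.15 and 1.72, while the list medians of background were 8.48 and 7.70. The next 3 had ordinary backgrounds between 5.96 and 8.07. Chromosome 19, 11050055 to 11050668, had folds of 5.62 and 3.96 with summits 13 bp apart. Chromosome 20, 32157224 to 32157605, had 5.59 and 3.98 with summits 9 bp apart. Chromosome 15, 45602730 to 45603246, had 5.96 and 3.88 with summits 39 bp apart. At these 3 the summits thus nearly coincided. That untreated replicate 3 had no peak there follows from the class they were taken from.

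Among regions of untreated replicates 1 and 3, chromosome 3, 149563352 to 149563900, came first, with folds of 4.92 and 6.15 and summits 190 bp apart. Chromosome 4, 74305556 to 74306034, had folds of 5.30 and 4.59 with summits 28 bp apart. Chromosome 4, 77193265 to 77193705, had 7.55 and 4.33, and an insulin peak lay 453 bp off. Chromosome 11, 17408276 to 17408615, had 4.36 and 5.24 with both summits on the same base. All 4 had an insulin peak within 2130 bp.

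The regions of untreated replicates 2 and 3 were the weakest, with a highest mean percentile of 33.0 at chromosome 16, 86553636 to 86554024. Its folds were 3.16 and 4.56 with summits 3 bp apart. The second and the fourth in this order were also on chromosome 16, at 85207234 to 85208136 with folds of 2.26 and 5.24, and at 88683817 to 88684185 with 3.25 and 4.10. The latter lay 345 bp from a site found in all 6 libraries. Chromosome 17, 37729766 to 37730218, had folds of 3.86 and 2.91.

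Single extremes of the set were as follows. The highest fold, 9.77, was at chromosome 12, 94144873 to 94145256, in untreated replicate 1, with 37 fragments over a background of 2.89, and the same region had a fold of 3.16 in untreated replicate 3. The widest region, 1572 bp, was chromosome 6, 142600441 to 142602012. The nearest to a site found in all 6 libraries was chromosome 2, 21263765 to 21264544, only 54 bp away, with folds of 2.27, 2.49 and 2.44 and summits spread over 535 bp. The farthest was chromosome X, 114575848 to 114576409, at 3284133 bp, where the fold was 8.88 in untreated replicate 1 and 4.62 in untreated replicate 2, and an insulin peak lay 2884 bp from it. Only 6 of the 577 regions (1.04%) had a mean percentile of 50 or more, and 97 reached a −log10 q of 5 in at least 2 untreated lists.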

How the data were processed

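Peak lists of 6 FoxK1 libraries (12 samples, 6 of them inputs, not analysed here) were used. The submitters' processing notes name MACS2, Bowtie2, SAMtools and fastp, and hg19 as the build. The sources used here state no version, control or threshold. The lowest −log10 p of each list lay between 3.002 and 3.005. The authors called peaks on each library by itself. Each deposited peak has a fold (a linear ratio over background), a −log10 p, a −log10 q, and a score equal to 10 times the −log10 p (to within 1) in 100% of 223205 peaks.

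Peaks sharing 1 bp were merged, and a library's strongest peak by −log10 q stood for a region. No peak was removed for lying in a segment of high background. Lists were cut by −log10 q. Summit fragments n and background b were solved from fold = (n + 1)/(b + 1) and a Poisson tail, to a −log10 p tolerance of 0.0005 (scaled up above 10). One whole number met both for 98.7% or more of every list and for every peak of the regions described. Background within 0.2% of a list's minimum counted as its lowest. Merging, distances and this step were tested on simulated data. Coordinates are 1-based, hg19; distances run between edges.

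Members, lists and rules were chosen with earlier results of these data known. Named regions are the 10 of 3 libraries and the 4 of each pair of libraries with the highest mean percentile, and the extremes of width, fold and distance; others were chosen after their values were seen. The annotation and promoter tables at hand were on GRCh38.p14, so genes, promoters and motifs at these regions were not used here and no sequence is printed. Alternatives were each library or replicate 3 left out, a −log10 q of at least 5, equal or shorter lists, other definitions of a region, fewer chromosomes and the replicate block. Python 3.11.15, numpy 2.4.6, pandas 2.3.3, scipy 1.17.1 and matplotlib 3.10.9 were used.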

Additional observations from a re-analysis of the deposited data

How the results depend on the processing

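Counts are followed by their share of the regions merged under the same setting. The count of untreated-only regions, 577 (0.847%), stayed within 1.5 times in 11 of 18 alternatives, among them 392 (0.631%) without replicate 3 in either treatment. Those 11 also include 807 (1.87%) with equal lists, 713 (2.32%) with 20000 peaks and 395 (2.55%) with 10000, where the share was higher. A similar count was not the same set, since only 82 of the 577 were among the 807. Leaving out 1 library gave between 64 (0.100%) and 1574 (2.44%): 64, 193 and 367 without untreated replicates 1, 2 and 3 (fewer libraries to meet the rule), and 1176 and 1574 without insulin replicates 1 and 2 (fewer to break it). The share was 0.412% with −log10 q of at least 5, and 1.18% (1004 regions) with summits joined within 100 bp; the cause was not tested. The insulin-only count, 2848 (4.18%), ranged from 460 (0.745%) to 8332 (13.0%) with 1 library left out: 8332 without untreated replicate 1, and 460 and 548 without insulin replicates 1 and 2. It was 860 (1.99%) with equal lists, 971 (2.26%) with equal lists and no replicate 3, 671 (2.19%) with 20000 peaks and 381 (2.46%) with 10000, all from shorter lists. The share of untreated-only regions within 10 kb of a site in all libraries, 27.9%, ranged from 29.1% to 33.7% with 1 library left out. It was 38.5% without replicate 3 in both treatments, 36.9% with equal lists as well, 17.4% with −log10 q of at least 5, and 24.0% and 14.9% with 20000 and 10000 peaks; the sites in all libraries also change with these settings. The held-out difference was negative with equal lists, a −log10 q of at least 5, chromosomes 1 to 22 and X, and same-numbered pairs, from -30.2 to -12.5 percentage points. It turned to 0.960 over the 3 same-numbered rounds with equal lists, and was -17.9 (deposited) and -2.98 (equal lists) over the 5 rounds that set aside both or neither replicate 3 list; the cause was not tested. These 3 settings, the lists of 20000 and 10000 peaks, equal lists without replicate 3, and the chromosomes left out were chosen after seeing the data.

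The labels' replicate numbers were not used as pairs in the main counts. Same-numbered rounds and the replicate block are given beside those counts. Deviations of same-numbered libraries from their treatment correlated at 0.101, 0.0606 and 0.266, and untreated replicate 1 correlated better with insulin replicate 2 (0.122). Untreated replicates 2 and 3 correlated best with their own number. The replicate 3 libraries had -0.210, -0.0698, -0.112 and -0.173 with other numbers, and untreated replicate 2 had 0.0142 with insulin replicate 1. Deviations from a treatment are tied across its libraries. A positive correlation therefore pushes the others down, and the negative values are not separate evidence on pairing. With the replicate block, which asks for 2 same-numbered pairs one way and none the other, 707 untreated-only (1.04%) and 4106 insulin-only regions (6.03%) were found, and the held-out difference over same-numbered pairs was -12.5 percentage points. The promoter and motif shares, planned for an hg19 genome, were not run.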
